A study of Mus musculus with 8 samples.

Results

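The comparison set MC3T3-E1 osteoblasts grown with Jagged1-overexpressing tumour cells against MC3T3-E1 osteoblasts grown with tumour cells carrying the empty vector, both in DMSO, the solvent control. MC3T3-E1 is an established mouse calvarial osteoblast precursor line. The samples were taken by title, with 2 replicates in each group, so the comparison used 4 of the 8 arrays of the series. The other 4 arrays held the same pair of co-cultures, again 2 replicates each, treated with MRK-003, a gamma-secretase inhibitor whose dose is not given in the sources used here. Each array was a 2-colour Agilent whole-genome mouse array on which co-culture RNA carried Cy3 and a commercial universal mouse reference RNA carried Cy5, with no dye swap. All 4 groups shared the osteoblast line, the medium and the presence of tumour cells. Not given in the sources used here are the tumour line and its species, the form of the Jagged1 construct, and whether the osteoblasts were parted from the tumour cells when RNA was taken. Overexpression stands in for ligand that a tumour would make itself, and each condition rests on a single osteoblast line. The labels call the replicates biological, and nothing more is given on how the cultures were kept apart.

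Jagged1 is a membrane-bound ligand of the Notch receptors. When a ligand on one cell engages a Notch receptor on its neighbour, gamma-secretase cuts the receptor, and the freed intracellular domain enters the nucleus and joins the DNA-binding protein RBPJ to switch on genes of the Hes and Hey repressor families, Nrarp and other feedback regulators. In osteoblast precursors, Notch activity is known for holding back maturation. Osteoblasts also make many of the factors that recruit and activate osteoclasts, the bone-resorbing cells.

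A level below is the log2 ratio of co-culture RNA to reference RNA for 1 probe, and a difference is the level with Jagged1 cells minus the level with vector cells on the same slide, averaged over the 2 slides (log2, so 1 is a doubling). The replicate number matched the slide: the arrays of replicate 1 lay on one slide and those of replicate 2 on the other. Slide 1 was the brighter: the median Cy3 signal was 182.8 (vector) and 183.8 (Jagged1) on slide 1, against 76.5 and 94.3 on slide 2. The share of spots with Cy3 well above background was 88.3% and 89.2% on slide 1, and 71.4% and 78.6% on slide 2. A few spots had extreme local backgrounds, up to 2414.5 and 21069 Cy3 units on the slide 1 and slide 2 Jagged1 arrays, and backgrounds over 2 times the array's median were set to that median. This touched 0, 54, 5 and 27 Cy3 spots on vector slides 1 and 2 and Jagged1 slides 1 and 2. On the same arrays it touched 67, 42, 45 and 41 Cy5 spots, where Cy5 backgrounds reached 191.5, 103, 4683 and 21548 units. With 2 arrays a group, the number of arrays limits the precision, and the spread between replicates may be partly technical.

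Of 23441 genes tested, 887 (3.78%) differed between the co-cultures in DMSO at a Benjamini-Hochberg adjusted p below 0.05 (limma, slide as a block). Of all genes, 323 (1.38%) were higher and 564 (2.41%) lower with Jagged1 cells, and the median difference over all genes was -0.01. The rises were the larger: the median difference was 0.78 among the higher genes and -0.62 among the lower, and 91 rises against 64 falls exceeded 2-fold. All 887 had the same sign on both slides, as the fit favours, and in 852 the 2 Jagged1 arrays did not overlap the 2 vector arrays, which was true of 41.9% of all genes. Of the 887, 873 were well above background on all 4 arrays. Under MRK-003, on other arrays of the same 2 slides, limma called no gene for the same contrast, with 253 genes at an unadjusted p below 0.05 against 4540 in DMSO. The 253 are fewer than a threshold of 0.05 would give if no gene differed. Both contrasts shared 1 spread estimate per gene, and same-numbered arrays deviated together more in MRK-003 (correlation 0.85) than in DMSO (0.57). The shared SE may be too wide for MRK-003, so the lack of calls there does not show a lack of difference. The 323 higher genes had a median difference of 0.05 in MRK-003, positive in 66.9% of them against 51.1% of all genes. The 564 lower genes had a median of 0.002 there, negative in 48.9% of them against 48.9% of all genes. The difference between the DMSO and the MRK-003 contrasts passed its own test, the limma interaction, in 90 genes (0.384%).

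The number of calls rested on single arrays. Without vector replicate 1 there were 161 calls, without vector replicate 2 133, without Jagged1 replicate 1 1074, and without Jagged1 replicate 2 347. Leaving out an MRK-003 array, which only the spread estimate uses here, left 503 (either vector array) or 476 (either Jagged1 array). All 887 genes kept their sign in each of these fits. Without an MRK-003 array this was fixed in advance, as the DMSO difference does not use those arrays. In the other fits it was favoured, as the 887 had passed with 1 sign on both slides. Without the slide block 41 genes passed, 32 higher and 9 lower. Without the limit on local background 108 passed, and 871 of the 887 kept their sign. Rises made up 36.4% of calls, against 26.0% with median centring, 46.9% with the scanner's processed ratio and 58.5% with the Cy3 channel alone, a scaling that moved the median of all genes to 0.12. Of the 86 called genes named below, 33 kept their call with any 1 of the 8 arrays left out, and 18 kept it without the slide block.

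**Figure D1:**
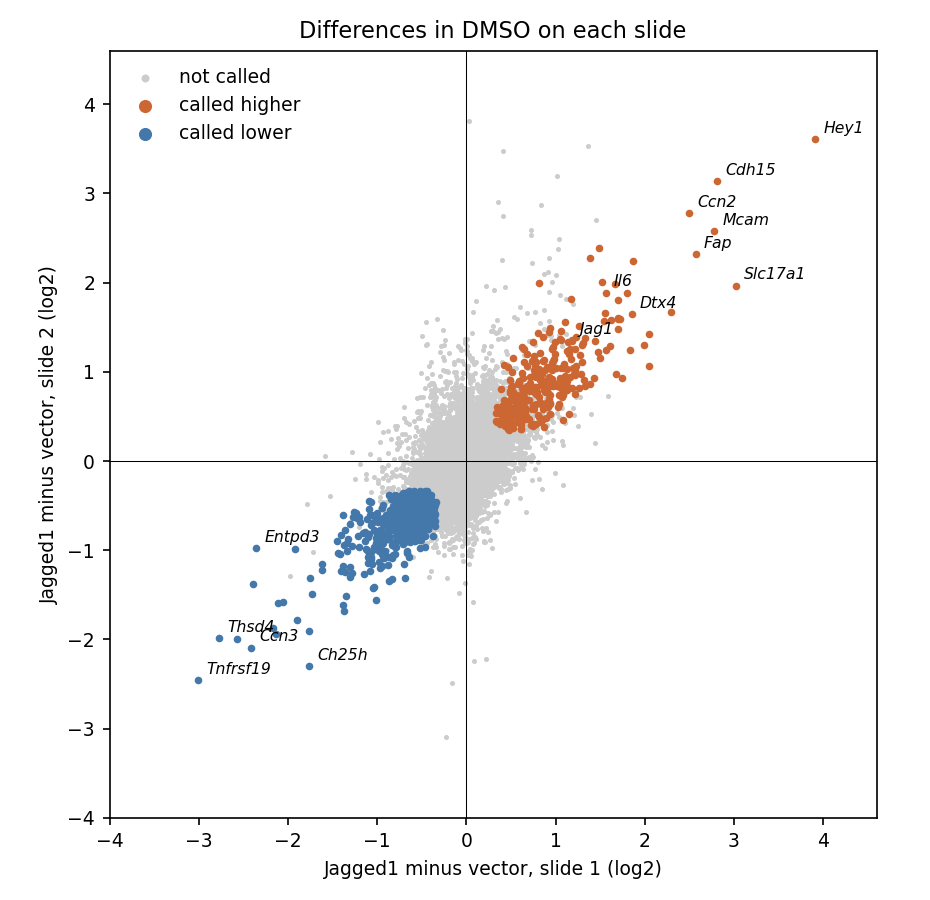
Difference between Jagged1 and vector co-cultures in DMSO for each of 23441 genes, slide 1 on the horizontal and slide 2 on the vertical axis (log2). The 323 genes called higher (orange) lie upper right, led by Hey1, the 564 called lower (blue) lie lower left, led by Tnfrsf19, and grey genes were not called.

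Notch pathway genes held the strongest rise. Jag1 itself, the gene for the ligand, stood at 2.15 and 1.95 with vector cells and at 3.33 and 3.30 with Jagged1 cells in DMSO (slides 1 and 2 in this order here and below). It rose by 1.27 (SE 0.11, adjusted p = 0.00363, limma), with no overlap between groups; a second, dimmer probe gave 0.73. In MRK-003 Jag1 stood at 1.83 and 2.01 with vector cells and at 1.99 and 2.09 with Jagged1 cells, a difference of 0.12, and the interaction passed (adjusted p = 0.0428). The MRK-003 arrays of both co-cultures overlapped in Jag1, and since neither the construct nor the handling of the tumour cells is given here, the probe does not serve as a check of the labels. The probe lies at chr2:136822550-136822609 (mm7, the build of the probe positions in the files).

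Hey1, a transcriptional repressor switched on directly by Notch, stood at -0.61 and -0.56 with vector cells and at 3.29 and 3.05 with Jagged1 cells. This was the largest rise by the naming rule, 13.5-fold (difference 3.76, SE 0.16, adjusted p = 0.000649, limma), measured at chr3:8669867-8669926 (mm7). All 4 values in MRK-003 were lower still, -2.68 and -2.17 with vector cells and -2.11 and -2.12 with Jagged1 cells. Hes1, the other widely expressed repressor of the family, went from 1.34 and 1.80 to 2.20 and 2.27, a rise of 0.67 (SE 0.12, adjusted p = 0.0335). The Hes1 call was lost with any array but Jagged1 replicate 2 left out, at differences of 0.46 (without Jagged1 replicate 1), 0.61 and 0.72 (without vector replicates 1 and 2) and 0.67 (without an MRK-003 array), and without the limit on local background its difference was 0.34. Of the 8 measured Hes and Hey repressors, 2 rose and none fell, against 1.38% of all genes rising. The other 6, Heyl (0.31), Hes6 (0.28), Hes2 (0.12), Hes5 (0.09), Hes3 (0.07) and Hes7 (0.02), did not pass. All 8 differences were positive, against 48% of all genes, except that Hes3 and Hes7 turned negative without the background limit, and Hes7 also with the scanner's processed ratio, in the authors' deposited table and without Jagged1 replicate 2.

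Of 5 feedback genes 3 rose, against 1.38% of all genes. Dtx4, a Deltex ubiquitin ligase that acts on Notch traffic, stood at 0.61 and 0.66 with vector cells and at 2.46 and 2.31 with Jagged1 cells (difference 1.75, SE 0.10, adjusted p = 0.000925, limma). Its other probes gave 1.46 and 1.24, and it was called under every one of 21 alternative settings. Nrarp, which destabilises the Notch transcription complex, went from -0.27 and -0.07 to 0.77 and 0.81 (0.97, SE 0.09, adjusted p = 0.00395). Vector cells gave Nrarp signal well above background on 1 of 2 arrays, and its difference was 0.42 without the background limit, 2.88 with the scanner's processed ratio and 2.48 with the Cy3 channel alone. Notch3, both a receptor and a Notch target, went from -1.97 and -1.98 to -0.28 and -0.38, a rise of 1.65 (SE 0.11, adjusted p = 0.00211). In MRK-003 the differences of Dtx4, Nrarp and Notch3 were 0.10, 0.07 and 0.01, and each interaction passed (adjusted p = 0.0139, 0.047 and 0.0232). The fringe gene Lfng, whose product adds sugars to Notch, did not pass (0.12), nor did Dtx1 (0.23, adjusted p = 0.319, limma). Dtx1 was not well above background on either vector array. Its groups overlapped, at -0.90 and -0.68 with vector cells and -0.75 and -0.36 with Jagged1 cells.

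Among the receptors, Notch1 went from 1.53 and 0.89 to 2.29 and 1.91. Its rise was 0.89 (SE 0.11, adjusted p = 0.0108, limma), and a second probe gave 0.66. The call was lost without vector replicate 2 (0.76) and without Jagged1 replicate 2 (0.84), and the difference was 0.44 without the background limit. Notch2, at 1.55 and 0.32 with vector cells and 1.36 and 1.06 with Jagged1 cells, fell on one slide and rose on the other and did not pass (0.28), nor did Notch4 (0.10). The Delta ligands lay near 0: Dll1 at -0.01, Dll3 at -0.03 and Dll4 at 0.12. Of 42 measured genes of the Notch machinery, 4 rose (Jag1, Notch1, Notch3 and Dtx4) and 1 fell, with a median of 0.06. Of all genes 1.38% rose and 2.41% fell. Notch3 and Dtx4 count among the Notch targets too. None of the 9 measured genes of receptor cleavage (gamma-secretase and the sheddases) passed in limma, with 3 at an unadjusted p below 0.05, against 4540 of all 23441 genes. Other listed Notch targets did not follow Hey1: Myc stood at -1.07 and -1.05 against -1.10 and -1.01 (0.00), and Efnb2 (-0.04), Gata2 (-0.08), Nrip2 (-0.10) and Cdkn1a (0.33) did not pass. Ccnd1, which encodes the G1 cyclin D1, fell from 1.02 and 0.94 to 0.36 and 0.59 (-0.50, adjusted p = 0.0445), a call lost with any 1 array left out, at -0.37 and -0.63 without vector replicates 1 and 2, -0.42 and -0.58 without Jagged1 replicates 1 and 2, and -0.50 without an MRK-003 array. In all, 5 of 19 measured Notch targets rose and 1 fell, against 1.38% of all genes rising and 2.41% falling, with a median of 0.12. The rises became 4 without the slide block, 2 without the background limit and 1 with neither. They were 4 with the processed ratio, 5 in the authors' deposited table and 3 with the Cy3 channel alone. None of these settings kept the fall.

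**Figure D2:**
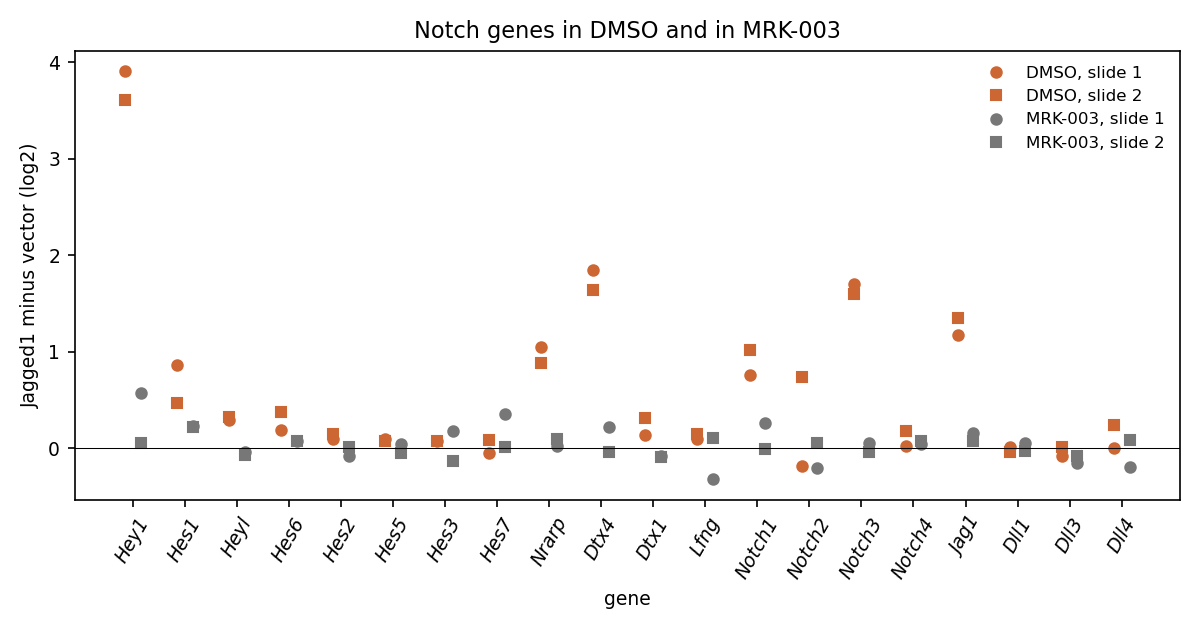
Difference between Jagged1 and vector co-cultures (log2) on each slide for 20 Notch genes, in DMSO (orange) and in MRK-003 (grey). Hey1 stands highest in DMSO at 3.76 on average, followed by Dtx4 (1.75), Notch3 (1.65) and Jag1 (1.27), while their averages in MRK-003 were 0.31, 0.10, 0.01 and 0.12.

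The promoters below are shown for genes that moved, each searched for the letters of a DNA-binding regulator. These were RBPJ for the Notch-responsive Nrarp and for Il6, E2F for the replication helicase gene Mcm6, and SREBP for Hmgcs1 of sterol synthesis. Each is the stretch of 250 bases before the RefSeq gene start (GRCm38.p6), 5′ to 3′ on the gene's strand, with capitals marking matches, on either strand, to the letters of the regulator named for that gene: TGGGAA (RBPJ), TTTGGCGC or TTTCCCGC (E2F), or TCACNCCAC (SREBP).
Nrarp: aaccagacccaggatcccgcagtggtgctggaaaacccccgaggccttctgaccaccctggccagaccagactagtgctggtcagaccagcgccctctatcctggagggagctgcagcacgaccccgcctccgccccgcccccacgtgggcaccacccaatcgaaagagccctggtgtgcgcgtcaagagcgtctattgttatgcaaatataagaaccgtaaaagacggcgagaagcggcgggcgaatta
Il6: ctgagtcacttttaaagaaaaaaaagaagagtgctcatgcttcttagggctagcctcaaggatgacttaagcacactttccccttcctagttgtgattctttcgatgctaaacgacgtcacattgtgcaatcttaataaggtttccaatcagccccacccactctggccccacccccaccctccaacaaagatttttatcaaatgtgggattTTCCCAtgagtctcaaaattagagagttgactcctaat
Mcm6: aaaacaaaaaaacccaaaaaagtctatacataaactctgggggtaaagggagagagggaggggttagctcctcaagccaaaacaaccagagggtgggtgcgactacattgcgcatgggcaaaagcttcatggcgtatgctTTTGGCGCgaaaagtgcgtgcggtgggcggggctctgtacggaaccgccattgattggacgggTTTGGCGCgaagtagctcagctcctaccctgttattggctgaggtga
Hmgcs1: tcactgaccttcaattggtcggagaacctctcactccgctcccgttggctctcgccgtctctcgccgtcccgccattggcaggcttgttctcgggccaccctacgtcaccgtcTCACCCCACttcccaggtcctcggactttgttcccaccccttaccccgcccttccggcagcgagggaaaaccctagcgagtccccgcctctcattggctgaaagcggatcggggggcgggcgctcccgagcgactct

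The stretches lie at chr2:25180508-25180757 (Nrarp, plus strand), chr5:30012864-30013113 (Il6, plus strand), chr1:128359706-128359955 (Mcm6, minus strand) and chr13:119690101-119690350 (Hmgcs1, plus strand). The Nrarp stretch holds no match to the RBPJ letters. The Il6 match to the RBPJ letters begins 38 bases before the gene start. Mcm6 holds E2F matches at 110 and 47 bases before its start, and Hmgcs1 an SREBP match at 137. Of the genes tested, 13184 had a promoter in the RefSeq table. The RBPJ letters were in 22.2% of 203 promoters of higher genes, 22.9% of 402 of lower genes and 23.6% of all 13184. They were in 4 of 10 Notch target promoters (40.0%), 15 of 36 of DNA replication genes (41.7%), 5 of 27 of mitosis genes (18.5%) and 4 of 15 of cholesterol synthesis enzymes (26.7%). The E2F letters were in 5.22% of the lower genes' promoters, 2.96% of the higher genes' and 2.27% of all; they were in 6 of 36 DNA replication promoters (16.7%) and in 0 of 27 mitosis promoters. The SREBP letters were in 1 of 15 promoters of cholesterol synthesis enzymes, that of Hmgcs1, and in 1.23% of all. Mcm6 is likewise 1 of the 6 DNA replication genes with E2F letters. The Mcm6 and Hmgcs1 stretches shown are therefore not typical of their lists. A match is a description of letters and not a measured site.

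Behind Hey1, the 12 largest rises were led by adhesion genes. Cdh15, which encodes the muscle cadherin, stood at 0.21 and -0.36 with vector cells and at 3.02 and 2.77 with Jagged1 cells, 7.85-fold higher (difference 2.97, SE 0.16, adjusted p = 0.000889, limma). Mcam, a cell adhesion molecule of the immunoglobulin family, went from -1.62 and -1.63 to 1.16 and 0.95 (2.68), though its other probe gave 0.70. Ccn2, the connective tissue growth factor, went from -0.26 and -0.93 to 2.24 and 1.85 (2.64, SE 0.39, adjusted p = 0.018). The groups did not overlap in these 3 genes, as the naming rule required. Fap, a membrane protease of activated fibroblasts, went from 0.51 and 0.25 to 3.08 and 2.57 (2.44), and Slc17a1, a phosphate transporter gene, from 0.45 and 0.01 to 3.47 and 1.98 (2.50), with vector signal well above background on 1 of 2 arrays. Igfbp5, which binds insulin-like growth factors, rose by 2.06, with 0.43 at its other probe. Pde9a, a cyclic GMP phosphodiesterase, rose by 1.98, Hp, haptoglobin, by 1.94, and Unc5b, a netrin receptor, by 1.83. Vill, of the villin family, rose by 1.83, with 1.499 at its other probe, and Myo18b, an unconventional myosin, by 1.84, with -0.05 at its other probe. The calls of Slc17a1 and Hp were lost without vector replicate 1 (2.39 and 2.02), those of Ccn2 (2.09), Slc17a1 (2.60), Hp (1.86), Myo18b (1.56) and Unc5b (1.23) without vector replicate 2. Ccn2 (2.27) was also lost without Jagged1 replicate 1, and Unc5b without either Jagged1 replicate (1.82 and 1.83) or either Jagged1 MRK-003 array (1.83). Without the background limit the differences of Slc17a1, Fap and Pde9a were 1.12, 1.46 and 1.28.

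The 12 largest falls were led by a receptor gene and a matrix gene. Tnfrsf19, a receptor of the TNF family, stood at 1.31 and 1.32 with vector cells and at -1.70 and -1.14 with Jagged1 cells, 6.65-fold lower (difference -2.73, SE 0.20, adjusted p = 0.00234, limma). Thsd4, an ADAMTS-like matrix protein, went from 2.72 and 2.24 to -0.06 and 0.26 (-2.38), with -1.14 at its other probe. Ccn3, of the same family as Ccn2, moved the other way, from 1.07 and 1.42 to -1.35 and -0.67 (-2.25). Ch25h, which makes 25-hydroxycholesterol, went from 3.27 and 3.44 to 1.503 and 1.14 (-2.04, SE 0.31), and Cd34, a sialomucin of progenitor cells, from -1.59 and -1.12 to -3.73 and -3.06 (-2.04, SE 0.10). The groups did not overlap in any of these 5, which the naming rule required. Ogn, a small leucine-rich matrix proteoglycan, fell by 1.84, Ptpn13, a tyrosine phosphatase, by 2.02 (0.87 at the other probe), and Entpd3, an enzyme that breaks down extracellular nucleotides, by 1.66. Trp63, a relative of p53, fell by 1.82, while its other probes gave -0.38 and 0.03, and Rassf2, a Ras-association protein, fell by 1.85, with -0.31 at the other probe. The calls of Ch25h (-1.86), Wnt10a (-1.64) and Entpd3 (-1.24) were lost without vector replicate 1, those of Ch25h (-2.21) and Entpd3 (-2.09) without vector replicate 2, Ch25h without Jagged1 replicate 2 (-1.503), and Entpd3 without either Jagged1 MRK-003 array (-1.66).

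**Figure D3:**
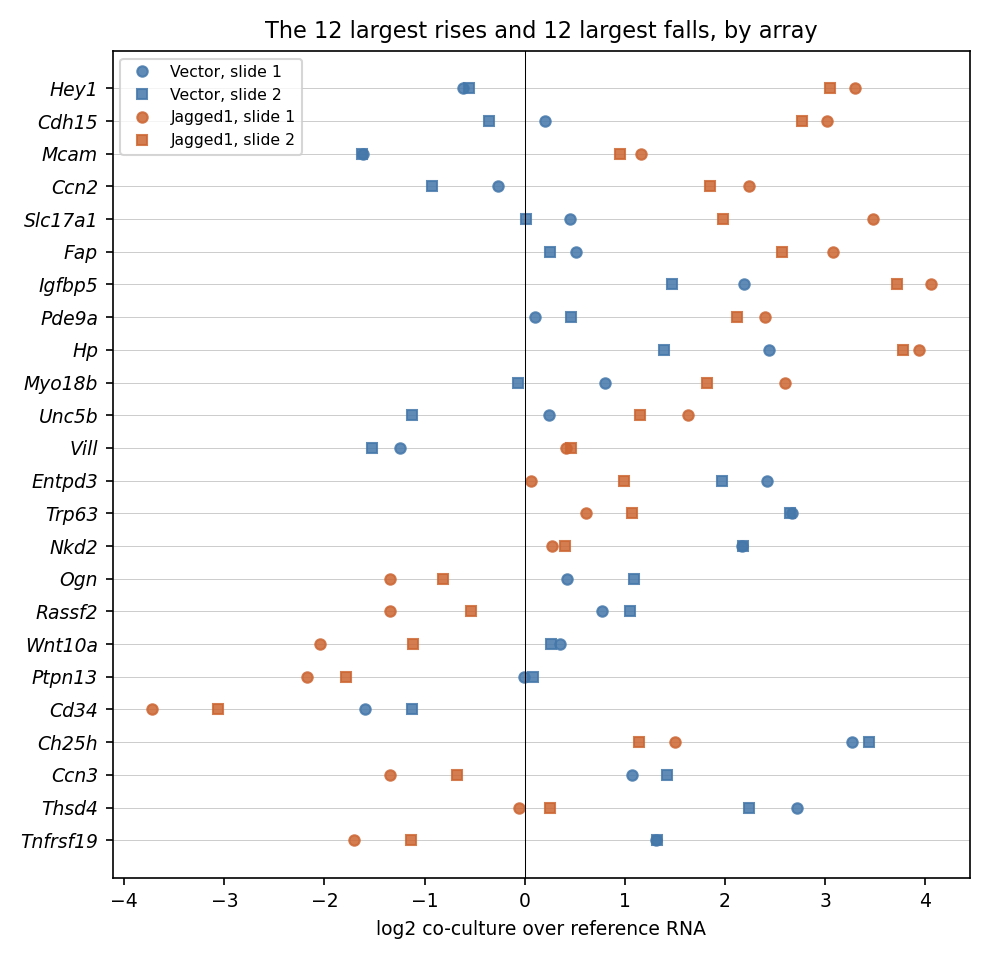
Level (log2 of co-culture over reference RNA) on each DMSO array for the 12 genes with the largest rises and the 12 with the largest falls by the naming rule, vector in blue, Jagged1 in orange, circles for slide 1 and squares for slide 2. In each gene the 2 Jagged1 arrays lie on one side of the 2 vector arrays, as the rule required, and levels of different genes are not comparable.

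Of 29 Wnt genes 6 fell and none rose, against 1.38% of all genes rising and 2.41% falling, with a median of -0.01. The falls became 1 without the slide block, 0 without the background limit, 3 with the processed ratio, 3 in the authors' deposited table and 2 with the Cy3 channel alone. The falls were in ligands (3 of 9) and in targets and feedback genes (3 of 11), with 0 of 9 secreted inhibitors. Wnt10a, a ligand, stood at 0.35 and 0.26 with vector cells and at -2.04 and -1.12 with Jagged1 cells (-1.89). Nkd2, a feedback inhibitor, went from 2.17 and 2.18 to 0.27 and 0.40 (-1.84, SE 0.08, adjusted p = 0.000649, limma), with -0.70 at its other probe. Rnf43, a ligase that removes Wnt receptors, fell by 0.97, and Wnt6 by 0.56, with -1.32 at its other probe. The Wnt10a (-1.64), Rnf43 (-0.80) and Wnt6 (-0.61) calls were lost without vector replicate 1, Rnf43 (-1.14) and Wnt6 (-0.52) without vector replicate 2, Wnt6 (-0.53) without Jagged1 replicate 1, and Rnf43 (-0.86) and Wnt6 (-0.60) without Jagged1 replicate 2. The list held between 1 and 5 falls with any 1 array left out.

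Genes of DNA replication and mitosis were lower together, each by less than 2-fold. In the list of DNA replication genes 17 of 44 fell and none rose, against 2.41% of all genes falling. All 44 differences were negative, against 52% of all genes, and the median was -0.47. Without Jagged1 replicate 1, 4 of the 44 were positive, and 1 was positive without either vector array, without the background limit and with the scanner's processed ratio. The 17 falls became 0 without the slide block, 4 without the background limit, 25 with median centring, 1 with the processed ratio, 1 in the authors' deposited table and 0 with the Cy3 channel alone. Chaf1b, a chromatin assembly subunit, stood at 0.24 and 0.48 with vector cells and at -0.52 and -0.32 with Jagged1 cells (-0.78, SE 0.08, adjusted p = 0.00486, limma). Prim1, the primase that starts each new strand, fell by 0.73, and the helicase subunits Mcm4 and Mcm6 by 0.69 and 0.65. Of the helicase and licensing genes 7 of 16 fell, of the polymerases and clamp genes 7 of 20, and of the nucleotide and chromatin genes 3 of 8. The list median was -0.48 on slide 1 and -0.41 on slide 2. In MRK-003 it was 0.002, and the differences of Chaf1b, Prim1, Mcm4 and Mcm6 were 0.05, -0.03, 0.00 and 0.05. Without vector replicate 1 the list had 1 fall, without vector replicate 2 none, without Jagged1 replicate 1 14 and without Jagged1 replicate 2 4, while the median stayed between -0.49 and -0.43. Without vector replicate 1 Prim1, Mcm4 and Mcm6 were lost at -0.74, -0.64 and -0.68, without vector replicate 2 Chaf1b, Prim1, Mcm4 and Mcm6 at -0.76, -0.72, -0.74 and -0.62, and without Jagged1 replicate 2 Mcm4 at -0.65.

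Of 34 mitosis genes 19 fell and none rose, against 1.38% of all genes rising and 2.41% falling, and 33 differences were negative (31 without Jagged1 replicate 1), with a median of -0.51. The 19 falls became 0 without the slide block, 2 without the background limit, 3 with the processed ratio, 3 in the authors' deposited table and 0 with the Cy3 channel alone. Nusap1, a spindle microtubule protein, stood at -0.95 and -0.39 with vector cells and at -1.82 and -1.25 with Jagged1 cells (-0.87, SE 0.09, adjusted p = 0.00462, limma). Both groups were higher on slide 2, and within each slide the Jagged1 array was the lower. Kif20a, a kinesin of cell division, fell by 0.76, the checkpoint gene Mad2l1 by 0.77 and Birc5, survivin, by 0.65. The list median was -0.61 on slide 1 and -0.48 on slide 2, and 0.008 in MRK-003. Of the spindle and kinetochore genes 11 of 18 fell, and of the kinases and cyclins 8 of 16. Without vector replicate 1 the list had 0 falls, without vector replicate 2 2, without Jagged1 replicate 1 11 and without Jagged1 replicate 2 4, with medians between -0.59 and -0.48. Nusap1 (-0.84), Kif20a (-0.64), Mad2l1 (-0.83) and Birc5 (-0.63) were lost without vector replicate 1, Mad2l1 (-0.70) and Birc5 (-0.66) without vector replicate 2, and Mad2l1 (-0.64) and Birc5 (-0.58) without Jagged1 replicate 2. In bulk RNA, fewer cells of a kind and less RNA per cell cannot be told apart.

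The wider cell cycle list moved less, with a median of -0.13. Lower were 3 of 20 genes and higher none, against 2.41% of all genes falling and 1.38% rising. Beside Ccnd1, these were Cdkn2c, an inhibitor of the cyclin D kinases (-0.55), and Rbl1, a retinoblastoma relative (-0.73). Cdkn2c was lost without either vector array (-0.49 and -0.62), either Jagged1 array (-0.51 and -0.60) or either Jagged1 MRK-003 array (-0.55). Rbl1 was lost without either vector array (-0.64 and -0.81), without Jagged1 replicate 2 (-0.53) and without any MRK-003 array (-0.73), and Ccnd1 without any array, as given above (-0.37 to -0.63).

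Sterol synthesis enzymes were lower as well. All 20 measured enzymes had negative differences, with a median of -0.38, and 6 fell, against 2.41% of all genes. Without Jagged1 replicate 1, 16 of the 20 were negative, with the mean over all probes of a gene 18, and without either vector array 19. In the whole list of 27 the 6 falls became 0 without the slide block, 1 without the background limit, 11 with median centring, 1 with the processed ratio, 1 in the authors' deposited table and 0 with the Cy3 channel alone. The median of the enzymes was -0.34 on slide 1, -0.44 on slide 2 and 0.02 in MRK-003. Ebp, a sterol isomerase, stood at 0.44 and 0.61 with vector cells and at -0.63 and -0.47 with Jagged1 cells (-1.08, SE 0.08, adjusted p = 0.00234, limma). Idi1, which makes an isoprenoid building block, fell by 0.88, Sc5d, a sterol desaturase, by 0.82, and Hmgcs1, an early enzyme of the pathway, by 0.70. Of the 7 genes of uptake and control, none passed in limma, with 1 at an unadjusted p below 0.05, against 4540 of all 23441 genes. Their median was 0.05. With any 1 array left out the list had between 1 and 7 falls. Idi1, Sc5d and Hmgcs1 were lost without vector replicate 1 (-0.83, -0.81 and -0.69), vector replicate 2 (-0.93, -0.82 and -0.71) and Jagged1 replicate 2 (-0.72, -0.66 and -0.64), while Ebp kept its call with any 1 array left out.

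Among 15 fatty acid genes, Acsl3, which activates fatty acids, fell by 0.87, the elongase gene Elovl6 fell by 0.67, and another elongase gene, Elovl1, rose by 0.58. These were 2 falls and 1 rise, against 2.41% of all genes falling and 1.38% rising. The rest did not pass, and the median was -0.14. Acsl3, Elovl6 and Elovl1 were lost without vector replicate 1 (-0.71, -0.69 and 0.53), vector replicate 2 (-1.03, -0.65 and 0.62) and Jagged1 replicate 2 (-0.81, -0.63 and 0.50), and Elovl1 also without a Jagged1 MRK-003 array (0.58). The lactate transporter gene Slc16a1 stood at -0.94 and -1.01 with vector cells and at -2.22 and -2.26 with Jagged1 cells (-1.27, SE 0.08, adjusted p = 0.0019, limma), with -1.26 and -0.25 at its other probes. It was called under every one of 21 alternative settings. Of 25 genes of hypoxia and glycolysis, the mitophagy gene Bnip3 also fell (-0.86) and Vegfa rose (0.93), with a median of -0.16. With Slc16a1 this list had 2 falls and 1 rise, against the same shares of all genes. Bnip3 was lost without either vector array (-1.02 and -0.70) and without Jagged1 replicate 2 (-0.73).

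**Figure D4:**
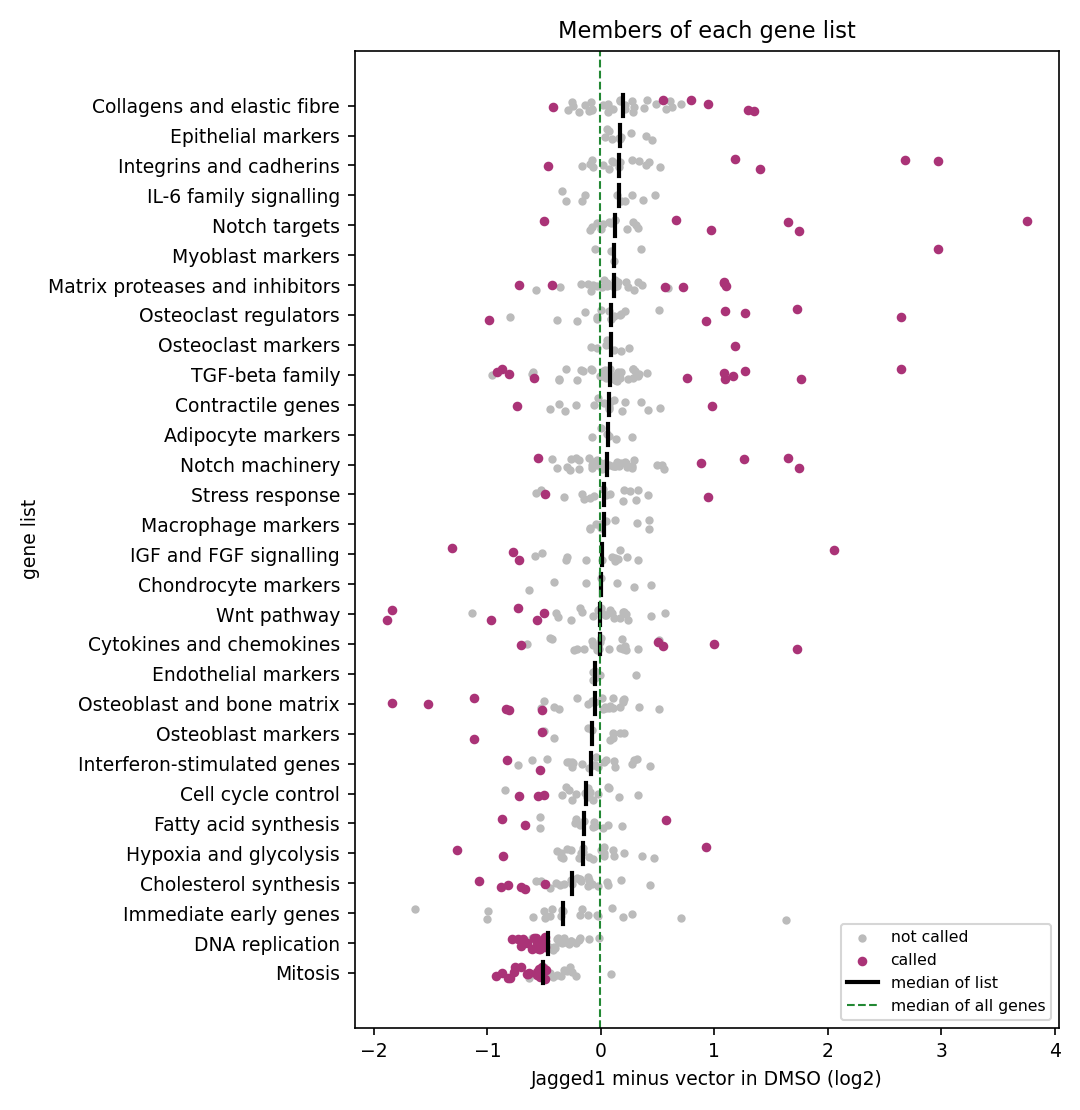
Difference between Jagged1 and vector co-cultures in DMSO (log2) for each measured member of 30 gene lists, with called genes in purple, others in grey, the list's median as a black bar and the median of all genes (-0.01) as a dashed line. The medians of mitosis (-0.51) and DNA replication (-0.47) lie lowest, and vertical position within a list is arbitrary.

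Factors that act on osteoclasts and blood vessels changed in both directions. Il6, the inflammatory cytokine interleukin-6, which promotes osteoclast formation, stood at 2.45 and 1.73 with vector cells and at 4.01 and 3.62 with Jagged1 cells, 3.31-fold higher (difference 1.73, SE 0.29, adjusted p = 0.0271, limma). The Jagged1 arrays lay above both vector arrays. The call was lost without either vector array (2.17 and 1.29) and without either Jagged1 array (1.505 and 1.95), and the difference was 1.12 without the background limit. In MRK-003 Il6 stood at 0.78 and 1.41 with vector cells and at 1.19 and 1.44 with Jagged1 cells (0.22), and the interaction did not pass (adjusted p = 0.217). None of 10 genes of IL-6 family signalling passed in limma, with 3 at an unadjusted p below 0.05, against 4540 of all 23441 genes. The closest were the receptor genes Osmr (0.37, adjusted p = 0.0794) and Il11ra1 (-0.31, adjusted p = 0.084).

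Tgfb1, the bone matrix growth factor TGF-beta 1, went from 0.20 and 0.21 to 1.42 and 1.18 (1.09, SE 0.09, adjusted p = 0.00325, limma). Vegfa, the main angiogenic factor, went from -0.40 and -0.71 to 0.34 and 0.41 (0.93), a call lost without vector replicate 2 (0.82). Sema3a, a semaphorin that restrains osteoclasts, fell from 0.02 and 0.48 to -0.89 and -0.57 (-0.98), a call lost without either vector array (-0.99 and -0.98). Of 21 osteoclast regulators 5 rose (1 without the slide block, 2 without the background limit) and 1 fell, against 1.38% of all genes rising and 2.41% falling, with a median of 0.09, and between 1 and 5 rose with any 1 array left out. Some lists share genes: Ccn2 (2.64) counts among the rises of both the osteoclast regulators and the TGF-beta family below. The counts of these lists are therefore not separate results. None of the 3 measured genes of the RANKL axis passed in limma or reached an unadjusted p below 0.05, and RANKL itself, Tnfsf11, was too dim to be tested. Among 27 cytokines and chemokines, the chemokine Ccl9 rose by 0.99, the cytokine Tslp by 0.51, and Il16 fell by 0.70. The list had 4 rises and 1 fall, against 1.38% of all genes rising and 2.41% falling, with a median of -0.01. Ccl9 was lost without vector replicate 2 (0.95). Tslp was lost with any 1 array left out (0.43 to 0.59), and Il16 without either vector array (-0.54 and -0.86), either Jagged1 array (-0.69 and -0.71) or either Jagged1 MRK-003 array (-0.70). Without vector replicate 2 no gene of this list was called higher.

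In the TGF-beta family of 47 genes, 7 rose and 4 fell, against 1.38% of all genes rising and 2.41% falling, with a median of 0.08. This became 1 rise and 0 falls without the slide block and with the Cy3 channel alone, and 3 rises and 1 fall without the background limit, with the processed ratio and in the authors' deposited table. Inhba, a subunit of activin A, stood at 0.26 and -0.40 with vector cells and at 1.24 and 0.93 with Jagged1 cells (1.16, SE 0.13, adjusted p = 0.00726, limma). Bmp4, a bone morphogenetic ligand, went from 0.34 and 1.00 to -0.40 and 0.13, with no overlap between the groups (-0.81). The receptor gene Tgfbr2 fell by 0.87 at its brightest probe, with 0.03 and 0.06 at its other probes. Tgfbr2 was lost without vector replicate 1 (-0.77). Bmp4 was lost without either vector array (-0.96 and -0.66), either Jagged1 array (-0.74 and -0.88) or either Jagged1 MRK-003 array (-0.81). With any 1 array left out 3 to 6 members rose and 0 to 3 fell.

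Of 29 bone formation genes 6 fell and none rose, against 1.38% of all genes rising and 2.41% falling, and the median was -0.06. The list did not move as a whole: 14 differences were positive and 15 negative, against 48% and 52% of all genes. The falls became 1 without the slide block, 1 without the background limit, 3 with the processed ratio, 3 in the authors' deposited table and 1 with the Cy3 channel alone, and 1 gene rose with median centring. Alpl, tissue-nonspecific alkaline phosphatase, needed for mineral deposition, stood at -0.82 and -0.44 with vector cells and at -2.10 and -1.39 with Jagged1 cells (-1.12, SE 0.11, adjusted p = 0.00435, limma). It kept its call with any 1 array left out, and its difference was -0.45 without the background limit. Ibsp, bone sialoprotein, fell by 0.52, a call lost with any 1 array left out (-0.37 to -0.66), and its difference was -1.25 without the background limit. With any 1 array left out between 3 and 5 members fell.

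Matrix genes gave more rises than falls. Of 34 collagen and elastic fibre genes 5 rose and 1 fell (0 rose without the slide block and 2 without the background limit), against 1.38% of all genes rising and 2.41% falling, with a median of 0.19. The basement membrane collagens rose: Col4a1 went from 1.64 and 1.24 to 2.96 and 2.62 (1.35, SE 0.11, adjusted p = 0.00273, limma) and Col4a2 from 1.27 and 0.97 to 2.05 and 2.08 (0.94). Loxl1, which crosslinks elastic fibres, went from -1.50 and -1.71 to -0.21 and -0.41 (1.30), and Col5a3 rose by 0.80. Col4a2 and Col5a3 were lost without vector replicate 1 (0.92 and 0.76), vector replicate 2 (0.97 and 0.83) and Jagged1 replicate 2 (0.70 and 0.65). With any 1 array left out 2 to 6 members rose.

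Of 29 matrix proteases and inhibitors 5 rose and 2 fell, against 1.38% of all genes rising and 2.41% falling, with a median of 0.12. None passed without the slide block or without the background limit. Mmp13, collagenase 3, went from 4.19 and 3.47 to 5.15 and 4.72 (1.10, SE 0.16, adjusted p = 0.0174, limma), Mmp11 rose by 1.08, and Adamts2, which trims procollagen, by 0.73. The membrane protease gene Mmp16 fell by 0.72. All these calls depended on single arrays. Mmp13 was lost without vector replicate 2 (0.86) and Jagged1 replicate 2 (1.16), Mmp11 without either vector array (0.96 and 1.20), and Mmp16 without either vector array (-0.77 and -0.67). Adamts2 was lost without either vector array (0.88 and 0.57), either Jagged1 array (0.76 and 0.69) or either Jagged1 MRK-003 array (0.73), and 0 to 4 members of the list rose with any 1 array left out.

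Among 20 integrins and cadherins 4 rose and 1 fell, against 1.38% of all genes rising and 2.41% falling, with a median of 0.16. Beside Cdh15 and Mcam, Itga1, a collagen-binding integrin chain, went from 1.68 and 1.72 to 3.25 and 2.96 (1.41, SE 0.13, adjusted p = 0.00418, limma), and Itgb3 from 1.02 and 0.77 to 2.16 and 1.99 (1.18, SE 0.09, adjusted p = 0.00234). Itga1 was lost without either vector array (1.40 and 1.41), and its difference was 0.43 without the background limit. Of 18 contractile genes 1 rose and 1 fell, against the same shares of all genes. Mylk, myosin light chain kinase, rose by 0.98, with 1.07 and -0.04 at its other probes, and Tpm1, a tropomyosin, fell by 0.74. Tpm1 was lost without either vector array (-0.86 and -0.61) and either Jagged1 array (-0.67 and -0.81).

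In the insulin-like and fibroblast growth factor list, 1 of 17 rose (Igfbp5, above) and 3 fell, against 1.38% of all genes rising and 2.41% falling. Fgf7, a growth factor for epithelium, stood at 2.98 and 3.11 with vector cells and at 1.66 and 1.81 with Jagged1 cells (-1.31, SE 0.11, adjusted p = 0.0032, limma). Igf1 fell by 0.77 and Igfbp2 by 0.72. Igf1 was lost with any array but Jagged1 replicate 2 left out, at -0.64, -0.90 and -0.47 without vector replicates 1 and 2 and Jagged1 replicate 1 and -0.77 without an MRK-003 array. Igfbp2 was lost without either vector array (-0.73 and -0.71) or either Jagged1 array (-0.66 and -0.79), and its difference turned to 0.03 without the background limit.

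Stress genes gave 1 rise and 1 fall and interferon genes 2 falls, against 1.38% of all genes rising and 2.41% falling. Ddit4, an mTOR inhibitor, rose by 0.95 and Psat1, of serine synthesis, fell by 0.49 among 18 stress genes. Of 24 interferon-stimulated genes Ifit2 (-0.82) and Ifit3 (-0.53) fell. Ddit4 was lost without vector replicates 1 and 2 (1.04 and 0.86), Jagged1 replicate 2 (0.60) and either vector MRK-003 array (0.95), Ifit2 without vector replicates 1 and 2 (-0.88 and -0.77). Psat1 (-0.57, -0.41 and -0.40) and Ifit3 (-0.57, -0.50 and -0.46) were lost without vector replicates 1 and 2 and Jagged1 replicate 2, and both without any MRK-003 array (-0.49 and -0.53). None of 21 immediate early genes passed in limma, with 7 at an unadjusted p below 0.05, against 4540 of all 23441 genes. Their differences spread from -1.63 to 1.63, with a median of -0.33. Fosb (-1.004, adjusted p = 0.055) and Jun (-0.99, adjusted p = 0.0661) came closest. With the 4 DMSO arrays fitted alone 4 of the 21 fell and 1 rose, with median centring 2 fell, and with 1 array left out at most 1 fell and 1 rose.

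Markers of the labelled cell type were measured. All 11 osteoblast markers were well above background on all 4 DMSO arrays, with median levels of 1.07 and 1.81 with vector cells and of 1.09 and 1.62 with Jagged1 cells. So were all measured epithelial (10), macrophage (10), osteoclast (8) and chondrocyte (7) markers, and the filter on dim probes favours this. Detection therefore does not tell the cell types apart. Markers of other cell types that a co-culture could hold were measured too, and their part in the results was not tested. The 10 measured epithelial markers had median levels of -2.50 and -2.32 with vector cells and of -2.43 and -1.96 with Jagged1 cells. None of the 10 passed in limma, with 3 at an unadjusted p below 0.05, against 4540 of all 23441 genes. All 10 differences were positive, against 48% of all genes, with a median of 0.17. The largest were in Krt18 (0.45, adjusted p = 0.162, limma) and Krt14 (0.40, adjusted p = 0.065, limma). Without vector replicate 1, 6 of 10 were positive, without Jagged1 replicate 1 8, and with median centring 9. The epithelial markers Cdh1 and Cldn4 were too dim to be tested. None of 10 macrophage markers passed (medians -2.73 and -2.96 against -2.59 and -2.73), nor did any of 6 adipocyte, 7 chondrocyte or 6 endothelial markers. At an unadjusted p below 0.05 (limma) were 3 of the macrophage, 0 of the adipocyte, 4 of the chondrocyte and 1 of the endothelial markers, against 4540 of all 23441 genes. Of 8 osteoclast markers Itgb3 alone rose, and of 5 myoblast markers Cdh15 alone. Probes were designed for mouse transcripts, so tumour cell RNA of another species may be read in part or not at all.

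The 5 genes with the smallest interaction p in each direction included 3 not yet described. Dbndd2, of the dysbindin family, stood at -0.32 and -0.40 with vector cells and at 1.37 and 1.41 with Jagged1 cells (1.75, SE 0.08, adjusted p = 0.000649, limma), with 1.86 at its other probe, and was called under every one of 21 alternative settings. In MRK-003 it stood at -0.88 and -0.97 with vector cells and at -0.83 and -0.96 with Jagged1 cells. Tns1, tensin 1, a focal adhesion protein, went from -0.79 and -1.35 to 0.93 and 0.24 (1.66), with 0.11 to 1.56 at its other probes. Lrrc15, a leucine-rich repeat membrane protein, fell from 1.54 and 1.52 to 0.19 and 0.01 (-1.43), with 0.03 at its other probe. In MRK-003 the differences of Tns1 and Lrrc15 were 0.10 and -0.04.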

How the data were processed

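Levels came from the scanner files: mean signal and local background intensity of both channels, deposited by the authors from Feature Extraction 9.5.3.1, per the file headers. Backgrounds over 2 times an array's median were set to it, followed by normexp (offset 50), loess within arrays with control spots at weight 0, and log2 of Cy3 over Cy5. Of 41174 probes, 303 were left out for outlier spots and 7811 as dim (Cy3 not well above background on both arrays of any group); the brightest of 33060 kept probes stood for each of 23441 genes. Of all probes, 22951 were named by RefSeq accession and 18223 as in the files. limma 3.58.1 (R 4.3.3) fitted 4 group means and slide over all 8 arrays. Same-numbered arrays deviated together (correlations of 0.37 to 0.85 over 6 pairs of groups), and the file headers place them on 1 slide. The processed ratio came from the scanner software's deposited log10 ratio of Cy5 over Cy3, per the file headers, with its sign turned. The authors' value table holds, per its values, log2 of the processed ratio plus a constant per array (column medians 0.11 to 0.21), with its normalization not given in the sources used here. A fold is 2 to the size of the difference. The members and gene lists were chosen with earlier results of these data known. Named are the 12 largest rises and 12 largest falls with a symbol, 1 sign on both slides, no overlap and no other probe opposed by over 0.2; the Notch targets, ligands and receptors; Il6; up to 4 called members per list, or the 2 closest; and the 5 smallest interaction p in each direction; 2 genes under this rule are not reported here. On simulated data of this size (23441 genes) for the DMSO comparison, the fit recovered 72 of 100 genes changed by 1 and 100 of 100 changed by 2 (log2), with 4 false calls. The simulation used independent noise and a slide shift shared equally by all groups, as the fit assumes. It therefore does not give the rate of false calls in these data.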

Additional observations from a re-analysis of the deposited data

Results flagged for a closer look

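The contrast of Jagged1 with vector cells differed between DMSO and MRK-003 in 90 genes by the limma interaction test. Both contrasts come from the same slides, and each value here is the DMSO difference minus the MRK-003 difference (log2). Of the genes described in the report, 35 were among the 90. The Notch genes of these were Hey1 (3.45), Dtx4 (1.65), Notch3 (1.64), Jag1 (1.14) and Nrarp (0.90). The adhesion, matrix and contractile genes were Cdh15 (2.88), Mcam (2.80), Fap (2.45), Tns1 (1.55), Itga1 (1.42), Loxl1 (1.29), Itgb3 (1.17), Col4a1 (1.10) and Mylk (1.05), with Lrrc15 (-1.40), Ogn (-1.56), Thsd4 (-2.26) and Mmp16 (-0.88) in the other direction. Secreted factors and their regulators were Tgfb1 (1.08), Ccl9 (1.05), Fgf7 (-1.43), Ccn3 (-2.004) and Nkd2 (-1.89). The others of those described were Pde9a (1.92), Vill (1.92), Dbndd2 (1.72), Tnfrsf19 (-2.67), Cd34 (-1.95), Trp63 (-1.83), Rassf2 (-1.75), Slc16a1 (-1.37), Ebp (-1.18), Alpl (-1.15), Nusap1 (-0.94) and Chaf1b (-0.83). The groups of 2 arrays are too small for a check of single outlying arrays.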

How the results depend on the processing

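The 887 calls in DMSO became 41 with no slide block (no replicate block), 108 with no background limit, 4 with neither, 256 with the scanner's processed ratio, 257 in the authors' deposited table and 118 with the Cy3 channel alone. They stayed within 1.5 times at limits of 1.5 and 3 times the median (875 and 902), with median centring (1046), with no filter on dim probes (909), with Cy3 well above background on all 8 arrays (870), with the mean over all probes of a gene (926) and with the 4 DMSO arrays alone (1049). Leaving out 1 array gave 133 to 1074. The 90 genes with a differing contrast became 4 with no slide block, 0 with no background limit (1495 at an unadjusted p below 0.05, limma), 0 with neither (512), 2 with the processed ratio, 2 in the authors' table and 1 with Cy3 alone, and 0 to 51 with 1 array left out. In MRK-003 limma called 0 genes under every alternative run, with 55 to 554 at an unadjusted p below 0.05. These counts too rest on a spread shared with the DMSO arrays, which may be too wide for MRK-003.

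Of the called genes named, Igfbp2 alone changed sign, to 0.028 with no background limit with or without the slide block. Among genes not called, the same held for Hes3 (-0.027), Hes7 (-0.083), Efnb2 (0.60), Gata2 (0.33) and Dll3 (0.12). With median centring the sign turned in Myc (-0.12), Dll1 (0.037) and Dll3 (0.013). It turned with the processed ratio and in the authors' table in Hes7 (-0.0054 and -0.019) and Dll3 (0.12 and 0.10). With Cy3 alone it turned in Nrip2 (0.18), Myc (-0.014), Dll1 (0.18) and Dll3 (0.26). With 1 DMSO array left out the ranges crossed 0 for Lfng (-0.088 to 0.34), Efnb2 (-0.42 to 0.35), Myc (-0.28 to 0.28), Dll1 (-0.084 to 0.055), Notch2 (-0.064 to 0.62), Dll3 (-0.070 to 0.0025), Hes7 (-0.073 to 0.11), Nrip2 (-0.28 to 0.090), Cdkn1a (-0.15 to 0.81) and Notch4 (-0.027 to 0.23). Without the background limit Tslp gave 1.01, Rnf43 -0.43 and Ifit3 -0.037, none of them called. With Cy3 alone Slc17a1 gave 4.95, Pde9a 3.004, Thsd4 -4.39, Entpd3 -2.57, Col4a2 1.64, Col5a3 1.54 and Itgb3 1.89. The cause of these changes was not tested. Slide 2 was the dimmer, which limits the precision of weak genes there.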
